A study of Mus musculus with 12 samples.

Results

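CDK5 phosphorylates PPARγ at Ser273, a residue of the ligand-binding domain, and 10 genes reported elsewhere to depend on that phosphorylation were followed here across genotypes that differ at T166, a residue of the DNA-binding domain. The genes were Car3, Cyp2f2, Selenbp1, Rarres2, Peg10, Aplp2, Txnip, Nr3c1, Ddx17 and Rybp. They were taken by symbol from a count table of 55573 genes, and all 10 were in the table and among the 15117 genes with enough counts to be tested. The list came from published work on Ser273, and it was chosen with earlier results of these data known.

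RNA-seq was performed on cultured adipocytes obtained by differentiating stromal vascular cells (SVF) of subcutaneous fat, that is, the precursors and other non-adipocyte cells left once fat tissue is digested. The donors were homozygous C57BL/6 mice carrying wild-type PPARγ (WT), the T166A allele (TA), whose alanine cannot be phosphorylated, or the T166D allele (TD), whose aspartate imitates phosphorylated threonine (p-T166), and each genotype had 4 libraries. The mutations were made with CRISPR-Cas9 in the germline, so every cell carried them, and WT littermates were the controls. All 3 genotypes shared a differentiation medium, used for 4 days, with 850 nM insulin, 1 nM T3, 0.5 mM IBMX, 125 nM indomethacin, dexamethasone and 10% serum, followed by insulin and T3 until harvest on day 8. Dexamethasone, an agonist of the glucocorticoid receptor that Nr3c1 encodes, is given at 5 mM in the sample labels and at 5 μM in the methods. Neither the age of the donors nor whether each library came from a separate mouse is given in the sources used here, so p-values measure the spread between these libraries only.

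PPARγ is the nuclear receptor that drives fat cell differentiation, binding DNA as a heterodimer with RXR. In obesity, CDK5 and the MEK and ERK kinases phosphorylate it at Ser273, which leaves classical adipogenic targets largely untouched but shifts a small group of genes, among them adipsin and adiponectin, which are lower in that state. Ligands that block this phosphorylation without classical agonism restore the group, so its members serve as readouts of the Ser273 state. The direction in which each gene followed here moves with Ser273 phosphorylation is not given in the sources used here. Rises and falls below are therefore not read as following or opposing that state.

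Total counts per library were 18823619 to 20324286 for WT, 16950175 to 18182526 for TA and 16553324 to 18357864 for TD. Adipocyte markers were abundant in all 12 libraries, with Fabp4 at 4520 CPM or more and Adipoq at 558 CPM or more, where CPM stands for gene counts corrected for the normalized depth of their library. TD had a lower sum of the 12 adipocyte markers than WT and TA, at 11550 to 13927 CPM against 17433 to 20537 and 17325 to 23547. The summed fibroblast and preadipocyte markers ran from 14829 to 19854 CPM in WT, 16579 to 29609 in TA and 26100 to 38912 in TD, and skeletal muscle markers from 5.55 to 23.2, 17.7 to 82.7 and 17.1 to 287 CPM. Endothelial markers summed to 29.6 to 63.6 CPM in WT, 54.5 to 103 in TA and 116 to 147 in TD. In TD versus WT 8 of 9 were called higher, also when any single library was left out, against 15.1% of all tested genes. In TA versus WT 4 were higher, against 6.72%, and in TD versus TA 3, against 7.33%. With single libraries left out these became 3 to 7 and 2 to 5. The part of endothelial markers in the members' differences was not tested. In RNA of mixed cells, fewer cells of a type and less RNA per cell cannot be told apart. The share of counts on mitochondrially encoded genes was 5.39% ± 0.401 for WT (SD, n = 4), 3.81% ± 0.811 for TA and 3.20% ± 0.349 for TD. The counts cannot show the T166 substitutions themselves.

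The members did not all move alike. Mean levels of Car3 and Peg10 were highest in TD and lowest in TA, with the Peg10 libraries of TA and WT overlapping. Rarres2 was low in TA and Cyp2f2 high in TA, with TD close to WT for both. Txnip was higher in TD than in TA. Aplp2 was lower than WT in both mutants and Ddx17 higher than WT in TD, by small amounts at the edge of the threshold. For Selenbp1, Nr3c1 and Rybp no comparison passed the test.

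Differences were tested by edgeR's quasi-likelihood test with Benjamini-Hochberg adjustment over the 15117 genes, and an adjusted p under 0.05 was called. In TD versus WT, 3 of the 10 members were higher and 1 lower, against 15.1% and 14.2% of all tested genes. In TA versus WT, 1 was higher and 4 lower, against 6.72% and 4.41%. In TD versus TA, 4 were higher and 1 lower, against 7.33% and 9.37%. The same shares of all tested genes belong beside the counts of the other gene lists below. Libraries of the genotypes compared did not overlap for 4, 4 and 5 members in these comparisons, against 32.2%, 13.6% and 19.9% of all genes. Both mutants were set against the same WT libraries, and TD versus TA is the direct test of a difference between them. The median log2 fold change of the 10 members was 0.15 in TD versus WT, -0.05 in TA versus WT and 0.08 in TD versus TA, beside 0.01, -0.01 and 0.02 over all genes.

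**Figure D1:**
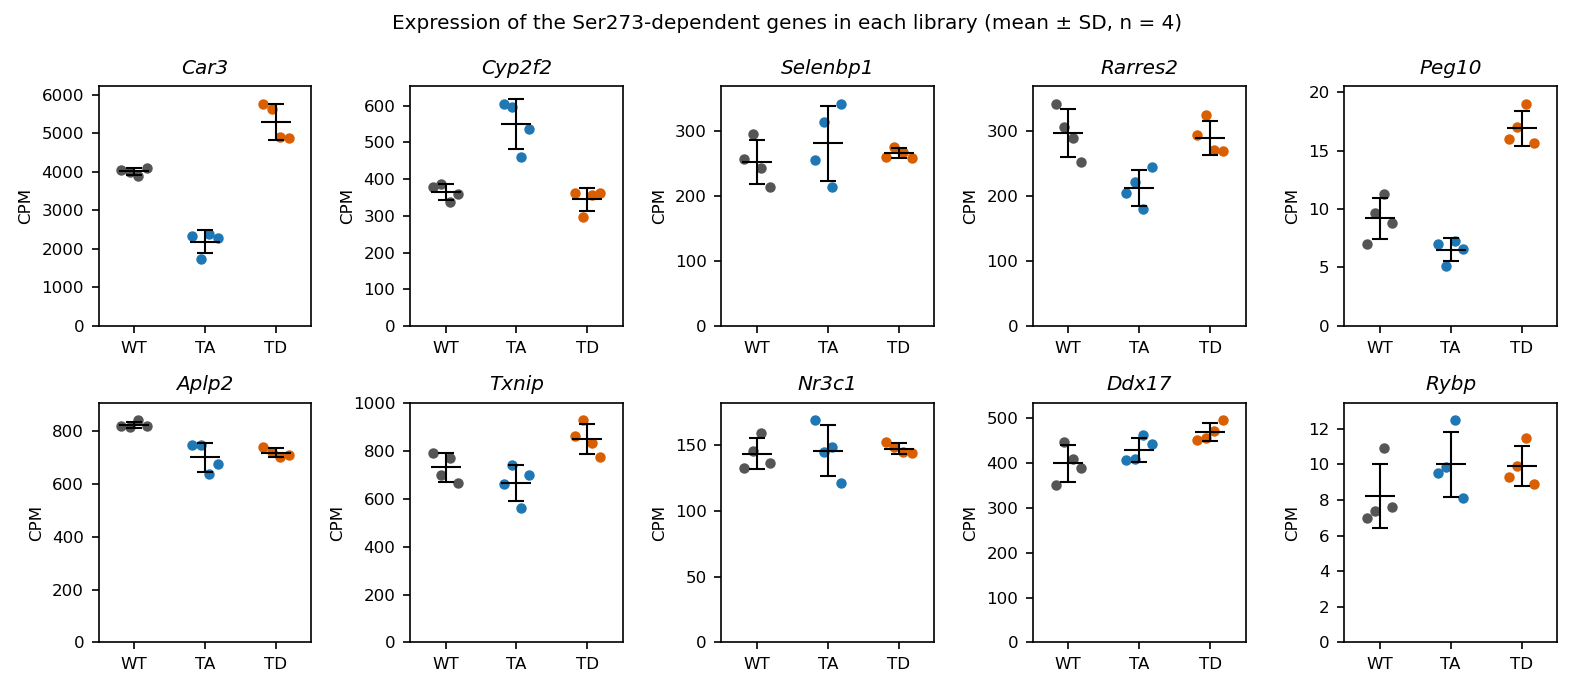
Expression of the 10 members in CPM (vertical axis, from 0) in each of the 4 WT, 4 TA and 4 TD libraries (points), with the mean and SD of each genotype (black). Car3 libraries lie at 3895 to 4108 CPM in WT, 1744 to 2382 in TA and 4882 to 5766 in TD, and the Nr3c1 and Selenbp1 libraries of the genotypes overlap.

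**Figure D2:**
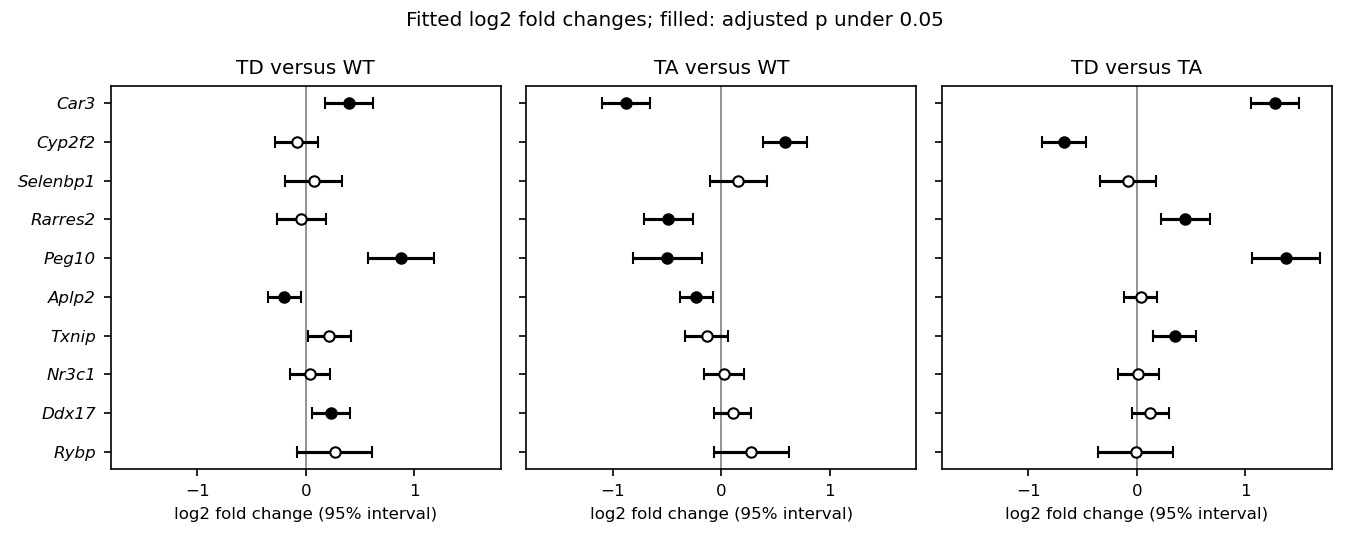
Fitted log2 fold changes (horizontal axis) with 95% intervals for the 10 members in TD versus WT, TA versus WT and TD versus TA. Filled points passed the test at an adjusted p under 0.05. In TD versus TA, Peg10 (1.37) and Car3 (1.28) lie farthest to the right and Cyp2f2 (-0.67) lies to the left.

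Per kilobase of exon, members differed widely in level. In WT, Car3 stood at 1401 ± 31.7 CPM per kb (SD, n = 4), followed by Txnip at 234 ± 19.0, Cyp2f2 at 181 ± 10.8 and Aplp2 at 140 ± 1.99. Rarres2 (112 ± 13.9) and Selenbp1 (111 ± 14.98) came next and did not differ beyond their spread. Ddx17 stood at 52.2 ± 5.31 and Nr3c1 at 18.7 ± 1.53 CPM per kb. Rybp (1.74 ± 0.379) and Peg10 (1.38 ± 0.265) were the lowest, and their libraries overlapped.

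Carbonic anhydrase 3 (Car3, ENSMUSG00000027559; GRCm38 chromosome 3, 14863512 to 14872523, plus strand) is a cytosolic enzyme that is very abundant in fat cells and slow skeletal muscle. Its level was 4051, 4003, 3895 and 4108 CPM in WT replicates 1 to 4. In TA it was 2335, 1744, 2382 and 2282 CPM. In TD it was 5766, 5627, 4913 and 4882 CPM. Every TD library lay above every WT library, and every WT library above every TA library. Car3 rose in TD versus WT by a log2 fold change of 0.40 ± 0.103 (SE, adjusted p = 0.0084). It fell in TA versus WT by 0.88 ± 0.104 on the log2 scale (adjusted p = 4.17e-05). TD exceeded TA 2.42-fold, with a log2 fold change of 1.28 ± 0.105 (adjusted p = 1.27e-06), and this call and those against WT held under each alternative setting tried. Car3 also marks muscle, and 10 of 11 tested muscle markers were higher in TD than in WT. The marker not called there, Mb, named after its values were seen, had means of 8.17 CPM in WT, 3.83 in TA and 3.03 in TD. In TA versus WT, where Car3 was lower, 6 of the 11 were higher, and 2 to 7 with single libraries left out. TD replicate 1 combined the lowest muscle sum of its genotype, 17.1 CPM, with the highest Car3 level. With TD replicates 3 and 4 left out, which had muscle sums of 287 and 166 CPM and were chosen after the data were seen, Car3 was higher in TD than in WT by 0.50 (adjusted p = 0.0229). TD replicate 2, which stayed in that fit, had a muscle sum of 69.9 CPM, against 5.55 to 23.2 CPM in WT. The part of muscle cells in the Car3 difference was not tested. Adipocyte markers moved the other way, 10 of 12 being lower in TD than in WT, while Car3 was higher.

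Among the other carbonic anhydrases, 11 of 15 had enough counts to be tested, and 0 of these 11 were called between TD and TA, where Car3 was, by edgeR, by DESeq2 or at an unadjusted p under 0.05. Against WT, the called genes, named here after their values were seen, changed alike in both mutants. Mitochondrial Car5b stood at 550 to 618 CPM in WT, 355 to 495 in TA and 342 to 432 in TD, with log2 fold changes of -0.50 ± 0.109 in TA (adjusted p = 0.00693) and -0.59 ± 0.109 in TD (adjusted p = 0.000905). Cytosolic Car2 ran from 11.1 to 15.6 CPM in WT, 4.33 to 7.19 in TA and 4.10 to 7.49 in TD, and it fell in each mutant. Membrane-bound Car4, at most 0.397 CPM in WT, was higher in both mutants at levels of at most 2.11 CPM. The Car4 calls were lost without WT replicate 3 or 4, among others, with an adjusted p of up to 0.139 in TD and 0.0956 in TA.

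**Figure D3:**
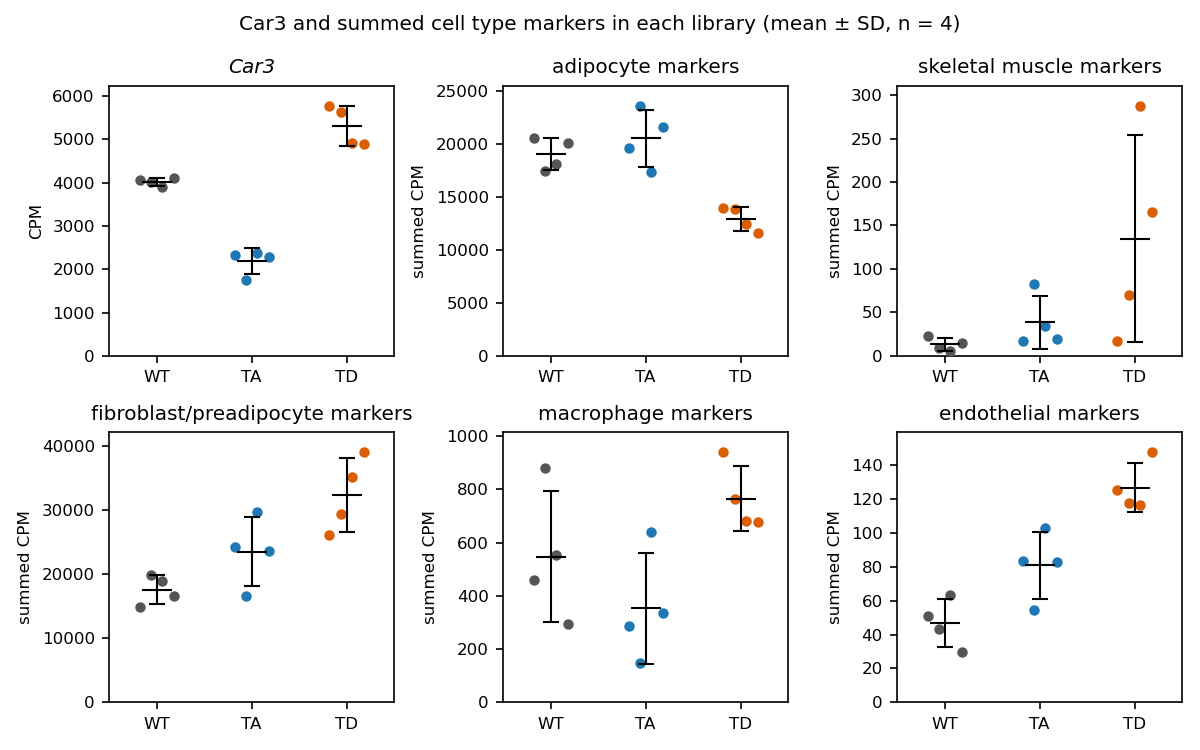
Car3 in CPM and the summed CPM of 5 cell type marker lists (vertical axes, from 0) in each library (points), with the mean and SD of each genotype (n = 4, black). TD replicate 1 has the highest Car3 level, 5766 CPM, and the lowest muscle marker sum of the TD libraries, 17.1 CPM. Adipocyte marker sums are lowest in TD, at 11550 to 13927 CPM.

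Peg10 (ENSMUSG00000092035; chromosome 6, 4747306 to 4760517, plus strand) is an imprinted gene derived from a retrotransposon, expressed from the paternal allele and known for its roles in placenta and in early adipogenesis. It was expressed at a low level, with 83 to 357 counts per library. The WT libraries had 7.00, 9.68, 11.2 and 8.82 CPM. The TA libraries had 7.02, 5.10, 7.29 and 6.61 CPM. The TD libraries had 15.95, 17.0, 19.0 and 15.7 CPM. All TD libraries lay above those of the other genotypes, whereas TA and WT overlapped between 7.00 and 7.29 CPM. The log2 fold change was 0.88 ± 0.145 in TD versus WT (adjusted p = 0.000452) and 1.37 ± 0.150 in TD versus TA (adjusted p = 2.01e-05), both called in each setting tried. In TA versus WT it was -0.50 ± 0.152 (adjusted p = 0.0445). That call was lost when WT replicate 2, 3 or 4, TA replicate 1, 2 or 4 or any single TD library was left out, with an adjusted p of up to 0.133.

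The neighbouring imprinted gene Sgce, which shares a promoter region with Peg10 and encodes a sarcoglycan, did not pass the test. It stood at 27.5 to 40.3 CPM in WT, 29.6 to 40.6 in TA and 39.8 to 42.8 in TD, with a log2 fold change in TD versus WT of 0.24 ± 0.108 (adjusted p = 0.108). Casd1 and Ppp1r9a, from the same cluster, did not pass the test in any comparison either. The fibroblast and preadipocyte markers rose in TD with Peg10, 11 of 13 tested being higher than in WT, and their part in the Peg10 difference was not tested.

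Rarres2 (ENSMUSG00000009281; chromosome 6, 48569696 to 48572789, minus strand) encodes chemerin, a secreted adipokine and chemoattractant. Its level was 341, 306, 288 and 252 CPM in WT. It was 203, 220, 179 and 244 CPM in TA. In TD it was 293, 324, 270 and 268 CPM. The TA libraries lay below all others, and the TD and WT libraries overlapped. Rarres2 fell in TA versus WT by 0.49 ± 0.106 on the log2 scale (adjusted p = 0.00655). TD exceeded TA by a log2 fold change of 0.45 ± 0.106 (adjusted p = 0.00913). In TD versus WT the difference was -0.04, with a 95% interval of -0.26 to 0.18, and its sign was not stable across settings. Lrrc61, on the opposite strand, shares 782 exon bases with Rarres2 and had a mean of 187 counts per library against 4887 for Rarres2, and whether counting used strand is not given in the sources used here.

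The chemerin receptors moved differently from the ligand. Cmklr1, the main signaling receptor of chemerin, stood at 35.0, 38.3, 36.6 and 34.4 CPM in WT, at 58.0, 35.2, 52.5 and 47.5 in TA and at 77.2, 75.8, 89.7 and 94.4 in TD. All TD libraries lay above all others, and TA overlapped with WT through a single TA library. Its log2 fold change was 1.22 ± 0.121 in TD versus WT (adjusted p = 2.92e-05), 0.42 ± 0.121 in TA versus WT (adjusted p = 0.0335) and 0.80 ± 0.120 in TD versus TA (adjusted p = 0.000337). Ccrl2, which binds chemerin without signaling, had 0.943 to 2.76 CPM and rose in TD versus WT, by 0.80 ± 0.270 (adjusted p = 0.0356). The Cmklr1 call in TA versus WT was lost without WT replicate 1, 3 or 4 or TA replicate 1, 3 or 4 (adjusted p up to 0.126), and the Ccrl2 call without WT replicate 1, 2 or 4 or TD replicate 1 or 4 (up to 0.114). Gpr1 had at most 0.539 CPM and was removed by the filter on low counts before the edgeR test, while DESeq2, run on the unfiltered counts, called all 3 receptors higher in TD versus WT and edgeR without the filter called 2. Cmklr1 is also expressed by macrophages, whose 12 markers summed to 295 to 880 CPM in WT, 147 to 641 in TA and 679 to 938 in TD. Of these 12 markers 1 was called in TD versus WT and 3 in TD versus TA, all higher in TD, with the largest rise for the mannose receptor Mrc1, by 1.68 ± 0.477 in TD versus TA (adjusted p = 0.0244). With single libraries left out, 0 to 5 macrophage markers were called higher in TD versus WT, 5 without WT replicate 2, and 0 to 11 in TD versus TA, 11 without TA replicate 3 and 0 without TA replicate 1, 2 or 4 or TD replicate 1, so their difference rested on single libraries. Their part in the Cmklr1 difference was not tested.

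Cyp2f2 (ENSMUSG00000052974; chromosome 7, 27119909 to 27133660, plus strand) encodes a cytochrome P450 monooxygenase of the endoplasmic reticulum, best known for oxidizing naphthalene in the airway. Cyp2f2 was the only member called higher in TA than in both other genotypes. Promoters are shown for members called in TD versus TA that had a promoter sequence available, which were Cyp2f2 and Txnip. The Cyp2f2 sequence runs from 250 bases before to 50 after the RefSeq gene start, at chr7:27119705-27120004 of GRCm38.p6, plus strand. Capitals mark matches, in order, to AGGTCA, the core of PPAR response elements, and to AGAACA, found in glucocorticoid response elements.
Cyp2f2: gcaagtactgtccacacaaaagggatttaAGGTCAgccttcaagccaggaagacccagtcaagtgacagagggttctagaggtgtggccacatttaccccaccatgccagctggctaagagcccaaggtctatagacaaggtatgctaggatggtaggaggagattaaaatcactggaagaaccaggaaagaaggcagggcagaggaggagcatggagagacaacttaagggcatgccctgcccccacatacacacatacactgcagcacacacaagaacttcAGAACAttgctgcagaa
On either strand, AGGTCA is held by 16.3% and AGAACA by 19.0% of 32851 mouse promoters of the same length. The direct repeat AGGTCANAGGTCA, which contains AGGTCA and which PPARγ and RXR bind together, is in 0.0396% of them and had no match here, which says only that these letters are not in this window.

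The WT libraries had 380, 386, 338 and 359 CPM of Cyp2f2. The TA libraries had 606, 598, 459 and 538 CPM. The TD libraries had 364, 298, 356 and 363 CPM. TA lay above all other libraries, and TD overlapped with WT. Cyp2f2 rose in TA versus WT by a log2 fold change of 0.59 ± 0.0946 (adjusted p = 0.00069) and was lower in TD than in TA, with a log2 fold change of -0.67 ± 0.0947 (adjusted p = 0.000223). Both calls held in each setting. In TD versus WT it was -0.08, with an interval of -0.28 to 0.12. Of the electron donors of microsomal P450 enzymes, Por stood at 311 to 355 CPM in WT and 236 to 269 in TD and fell in TD versus WT by 0.40 ± 0.102 (adjusted p = 0.00826). Cyb5a fell in TD versus WT by 0.50 ± 0.103 (adjusted p = 0.00207) and in TD versus TA by 0.39 ± 0.103 (adjusted p = 0.0166), the latter call being lost without TA replicate 2 or TD replicate 3 or 4 (adjusted p up to 0.0674). Neither was called in TA versus WT, where Cyp2f2 rose.

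Txnip (ENSMUSG00000038393; chromosome 3, 96557957 to 96561883, plus strand) encodes an arrestin-domain protein that binds thioredoxin and restrains glucose uptake. With its paralog Arrdc4 it is a known target of the glucose-sensing factors MondoA (Mlxip) and ChREBP (Mlxipl), which bind DNA with Mlx at paired E-boxes called carbohydrate response elements. The Txnip promoter, shown by the same rule as that of Cyp2f2, holds such a pair. It covers chr3:96557707-96558006 of GRCm38.p6 (RefSeq), plus strand, and capitals mark the match to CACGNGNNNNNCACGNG.
Txnip: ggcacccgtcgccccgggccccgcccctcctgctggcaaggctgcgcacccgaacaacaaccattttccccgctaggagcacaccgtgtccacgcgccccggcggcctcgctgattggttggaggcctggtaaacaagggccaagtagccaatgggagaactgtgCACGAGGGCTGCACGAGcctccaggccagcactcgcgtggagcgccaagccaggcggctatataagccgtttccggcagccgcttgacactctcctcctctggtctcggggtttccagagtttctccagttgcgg
The match starts 85 bases before the gene start. The same letters, searched on both strands, were found in 16 of 32851 promoters (0.0487%), and the single E-box CACGTG, which has no match here, in 7.15%. Of the 10 members, Cyp2f2, Txnip, Selenbp1, Aplp2 and Ddx17 had an entry in the promoter table. The promoters of Selenbp1, Aplp2 and Ddx17 held no match to any of the letters searched.

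Txnip stood at 791, 697, 769 and 665 CPM in WT. In TA it stood at 660, 741, 562 and 699 CPM. In TD it stood at 863, 927, 831 and 773 CPM. All TD libraries lay above all TA libraries, and WT overlapped with both. TD exceeded TA by a log2 fold change of 0.35 ± 0.0940 (adjusted p = 0.018), and the call was lost without TD replicate 2 (adjusted p = 0.0619) and without TD replicates 3 and 4 together (adjusted p = 0.0552). Against WT the log2 fold change was 0.22 in TD (95% interval 0.02 to 0.42, adjusted p = 0.0944) and -0.13 in TA (-0.33 to 0.06). The TD difference passed the test when libraries were scaled by their totals (0.29, adjusted p = 0.0252) and when WT and TD were fitted without TA (0.22, adjusted p = 0.0432).

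Arrdc4 followed another order. Its level was 6.02, 7.30, 7.43 and 6.85 CPM in WT, 17.7, 10.5, 19.2 and 12.8 in TA and 14.1, 16.01, 16.6 and 18.3 in TD. Both mutants lay above WT in every library and overlapped with each other. Arrdc4 rose in TD versus WT by a log2 fold change of 1.23 ± 0.167 (adjusted p = 0.000141) and in TA versus WT by 1.13 ± 0.167 (adjusted p = 0.00034), whereas TD versus TA was 0.11 (adjusted p = 0.693). Thioredoxin (Txn1), the binding partner of Txnip, fell in TD versus WT by 0.48 ± 0.0819 (adjusted p = 0.000551) and in TD versus TA by 0.33 ± 0.0820 (adjusted p = 0.0121). Its reductase Txnrd1 fell in TA versus WT by 0.31 ± 0.0862 (adjusted p = 0.0262). Of the factors themselves, Mlxip rose in TD versus WT by 0.25 ± 0.0733 (adjusted p = 0.0176), Mlx fell in TD versus TA by 0.29 ± 0.0715 (adjusted p = 0.0118), and Mlxipl was not called. The Mlxip call was lost without TD replicate 3 or 4 (adjusted p up to 0.0778) and the Txnrd1 call without WT replicate 4 or TA replicate 4 (up to 0.091). In the list of 9 tested arrestin-domain, thioredoxin and Mondo genes, 2 were higher and 1 lower in TD versus WT, against 15.1% and 14.2% of all tested genes. In TA versus WT 1 was higher and 1 lower, against 6.72% and 4.41%, and in TD versus TA 2 were lower, against 9.37%.

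**Figure D4:**
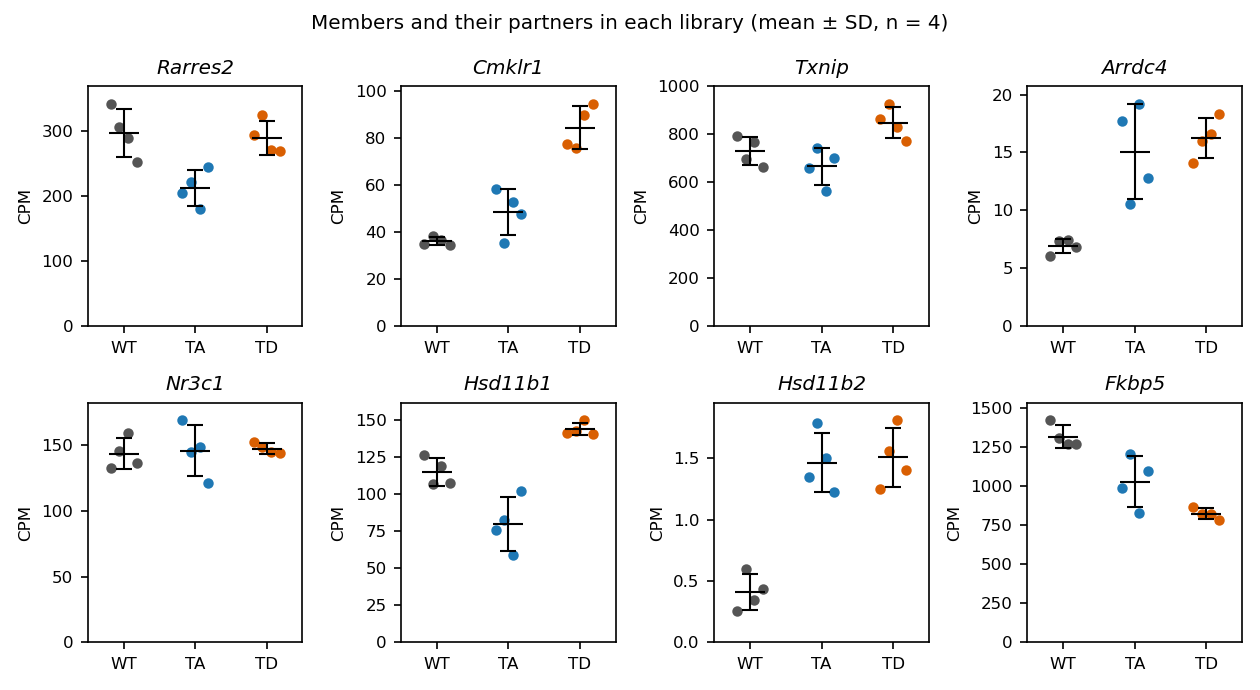
Expression in CPM (vertical axes, from 0) of Rarres2 and its receptor Cmklr1, Txnip and its paralog Arrdc4, and Nr3c1 with the glucocorticoid enzymes Hsd11b1 and Hsd11b2 and the induced gene Fkbp5, in each library (points) with the mean and SD of each genotype (n = 4, black). Cmklr1 is highest in TD (75.8 to 94.4 CPM), Arrdc4 is low in WT (6.02 to 7.43 CPM), and the Nr3c1 libraries of the genotypes overlap.

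Aplp2 (ENSMUSG00000031996; chromosome 9, 31149557 to 31211815, minus strand) encodes a membrane protein of the amyloid precursor family that is cleaved by secretases. It was the member with the least spread in WT relative to its mean, at 820, 815, 842 and 821 CPM. It stood at 746, 749, 637 and 676 CPM in TA and at 742, 720, 703 and 710 CPM in TD. Every library of both mutants lay below every WT library. The log2 fold change was -0.23 ± 0.0716 in TA versus WT (adjusted p = 0.0469) and -0.20 ± 0.0716 in TD versus WT (adjusted p = 0.0473). Both calls were at the edge of the threshold, with the adjusted p reaching 0.127 in TA and 0.287 in TD over the settings tried, and both were lost when any single WT or TD library was left out, the TA call also without TA replicate 3 or 4 and the TD call without TA replicate 1. TD and TA differed by 0.03, with an interval of -0.12 to 0.19.

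Of 9 tested genes of the amyloid precursor family and its processing, 5 were higher in TD versus WT, where Aplp2 was lower and 15.1% of all tested genes were higher. In TD versus TA 1 was higher and 1 lower, against 7.33% and 9.37% of all tested genes. In TA versus WT edgeR and DESeq2 called 0, and 2 had an unadjusted p under 0.05. App, the founding member of the family, rose in TD versus WT by 0.24 ± 0.0795 (adjusted p = 0.0338). The β-secretases Bace1 (0.25 ± 0.0832, adjusted p = 0.033) and Bace2 (1.25 ± 0.291, adjusted p = 0.0045) rose as well, Bace2 at no more than 5.80 CPM. The adaptors Apbb1 (0.50 ± 0.149, adjusted p = 0.0191) and Apbb2 (0.56 ± 0.101, adjusted p = 0.000753), which bind the intracellular tail, also rose. In TD versus TA, Apbb2 was higher by 0.36 ± 0.101 (adjusted p = 0.0217) and the γ-secretase subunit Psen2 was lower, with a log2 fold change of -0.26 ± 0.0784 (adjusted p = 0.0327). These calls depended on single libraries. The count of 5 in TD versus WT became 2 without TD replicate 3 and 3 without TD replicate 4 or WT replicate 1, 2 or 4, only Bace2 and Apbb2 being called each time, and the TD versus TA calls were lost without TA replicate 2 or 4 or TD replicate 2 or 3, among others.

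Ddx17 (ENSMUSG00000055065; chromosome 15, 79527736 to 79546741, minus strand) encodes a DEAD-box RNA helicase that acts in splicing, microRNA processing and transcriptional coactivation. It stood at 350, 447, 410 and 390 CPM in WT, at 406, 410, 462 and 442 in TA and at 452, 457, 472 and 495 in TD. The TD libraries lay above the WT libraries by a narrow margin, and TA overlapped with both. The log2 fold change in TD versus WT was 0.23 ± 0.0809 (adjusted p = 0.0402). The call was lost when any single TD library or WT replicate 1, 3 or 4 was left out, with an adjusted p of up to 0.13. In TA versus WT it was 0.11 (95% interval -0.06 to 0.28), and in TD versus TA 0.13 (-0.05 to 0.30). Ddx5, its close paralog, was not called in any comparison, with -0.11 in TD versus WT.

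Rybp (ENSMUSG00000072872; chromosome 6, 100228565 to 100287485, minus strand) encodes a zinc-finger subunit of variant Polycomb repressive complexes. Its level was 7.00, 7.40, 10.9 and 7.62 CPM in WT, 9.53, 9.84, 12.5 and 8.11 in TA and 9.31, 9.92, 11.5 and 8.91 in TD. A single WT library, replicate 3, lay apart from the other WT libraries and within the range of the mutants. The log2 fold change was 0.27 in TD versus WT (95% interval -0.08 to 0.61) and 0.28 in TA versus WT (-0.07 to 0.62). Without that library TD versus WT was 0.43 (adjusted p = 0.0478), so a single library decided the call. TD and TA differed by -0.01, with an interval of -0.35 to 0.33. Of 13 tested genes of the Ddx17 and Rybp complexes, 1 was higher and 2 lower in TD versus WT, against 15.1% and 14.2% of all tested genes. In TD versus TA 2 were lower, against 9.37%. In TA versus WT edgeR and DESeq2 called 0, and 1 had an unadjusted p under 0.05. Yaf2, the paralog of Rybp that takes its place in the complex, had the largest fall in TD versus TA, of 0.36 ± 0.0861 (adjusted p = 0.00976). With single libraries left out the counts ran from 0 to 2 higher and 0 to 2 lower in TD versus WT and from 1 to 2 lower in TD versus TA. Pcgf6 and Ring1 are named after their values were seen. The rise, that of Pcgf6, was lost without WT replicate 1, 2 or 4 or TD replicate 1, 2 or 3 (adjusted p up to 0.0908). The falls in TD versus WT were lost without WT replicate 4 or TD replicate 4 for Yaf2 (up to 0.083) and without WT replicate 1 or TD replicate 2 or 4 for Ring1 (up to 0.0664), and the Ring1 fall in TD versus TA was lost in 9 of 12 such fits (up to 0.16).

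Selenbp1 (ENSMUSG00000068874; chromosome 3, 94933056 to 94944758, plus strand) encodes a selenium-binding protein that acts as a methanethiol oxidase. It stood at 258, 295, 243 and 213 CPM in WT, at 256, 314, 214 and 342 in TA and at 261, 276, 267 and 259 in TD. The TA libraries had the widest spread, and all genotypes overlapped. The log2 fold change was 0.07 in TD versus WT (95% interval -0.19 to 0.34), 0.16 in TA versus WT (-0.10 to 0.42) and -0.08 in TD versus TA (-0.34 to 0.18). Its near-identical copy Selenbp2, with which it could share reads, had at most 0.485 CPM.

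Nr3c1 (ENSMUSG00000024431; chromosome 18, 39410545 to 39519421, minus strand) encodes the glucocorticoid receptor. It stood at 132, 145, 159 and 137 CPM in WT, at 169, 144, 149 and 121 in TA and at 152, 149, 144 and 144 in TD. The genotypes overlapped throughout. The log2 fold change was 0.04 in TD versus WT (95% interval -0.15 to 0.23), 0.02 in TA versus WT (-0.16 to 0.21) and 0.01 in TD versus TA (-0.17 to 0.20).

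Enzymes that set the local glucocorticoid level differed where the receptor did not pass the test. Hsd11b1, which regenerates active glucocorticoid, stood at 126, 107, 119 and 108 CPM in WT, at 75.3, 82.4, 58.6 and 102 in TA and at 141, 143, 149 and 141 in TD. No genotype overlapped with another. It fell in TA versus WT by 0.53 ± 0.120 (adjusted p = 0.0088) and was higher in TD than in TA by 0.85 ± 0.120 (adjusted p = 0.000228). TD versus WT was 0.32 (adjusted p = 0.0528). Hsd11b2, which inactivates glucocorticoid, was at 0.259 to 0.596 CPM in WT, 1.22 to 1.78 in TA and 1.25 to 1.81 in TD, and it rose in TD versus WT by 1.86 ± 0.316 (adjusted p = 0.000546) and in TA versus WT by 1.81 ± 0.318 (adjusted p = 0.0014). The receptor chaperone Fkbp4 fell in TD versus WT by 0.32 ± 0.0968 (adjusted p = 0.0217), a call lost without WT replicate 1 or 4 or TD replicate 3 or 4 (adjusted p up to 0.0865) and with library totals alone.

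Of 16 genes induced by glucocorticoids, 4 were higher and 5 lower in TD versus WT, against 15.1% and 14.2% of all tested genes. In TA versus WT 2 were lower, against 4.41%, and in TD versus TA 3 were higher and 2 lower, against 7.33% and 9.37%. With single libraries left out, 0 to 3 were lower in TA versus WT, where DESeq2 called 4, and 0 to 4 were lower in TD versus TA, 0 without TA replicate 2 or TD replicate 4 and 4 without TA replicate 3. Of the falls in TA, that of Zbtb16, named after its values were seen, was lost without WT replicate 3 or 4 or TA replicate 1 or 3 (adjusted p up to 0.0713). The list moved in both directions, with medians of -0.06, -0.16 and 0.12. The largest rise in TD versus TA was that of the MAP kinase phosphatase Dusp1, 0.62 ± 0.0941 (adjusted p = 0.000368). The largest fall was that of Pdk4, which restrains pyruvate dehydrogenase, with -0.50 ± 0.125 (adjusted p = 0.0129). Fkbp5, a co-chaperone that limits receptor activity and was singled out after its values were seen, fell in each comparison, from 1267 to 1420 CPM in WT to 826 to 1202 in TA and 782 to 868 in TD. The Pdk4 call was lost without TA replicate 2 or TD replicate 4 (adjusted p up to 0.0528). The Fkbp5 calls were lost without WT replicate 1 or 2 or TA replicate 1 or 3 in TA versus WT (up to 0.0818) and without WT replicate 3, TA replicate 1, 2 or 4 or TD replicate 2, 3 or 4 in TD versus TA (up to 0.138).

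Further genes known to depend on Ser273 were read beside the members. Of 6, 1 was higher and 4 lower in TD versus WT, against 15.1% and 14.2% of all tested genes. In TA versus WT 1 was higher and 1 lower, against 6.72% and 4.41%, and in TD versus TA 2 were lower, against 9.37%. Adipsin (Cfd) stood at 1531, 1222, 1023 and 1311 CPM in WT, at 843, 999, 712 and 1175 in TA and at 930, 859, 752 and 658 in TD. All TD libraries lay below all WT libraries, and TA overlapped with both. Cfd fell in TD versus WT by 0.67 ± 0.151 (adjusted p = 0.00366), and TA versus WT was -0.45 ± 0.150 (adjusted p = 0.0672). Adiponectin (Adipoq) fell in TD versus WT by 0.28 ± 0.0883 (adjusted p = 0.0254) and in TD versus TA by 0.42 ± 0.0884 (adjusted p = 0.00464). Without scaling beyond library totals the Adipoq and Nr1d1 falls in TD versus WT did not pass the test, and the Adipoq fall was also lost without WT replicate 1 or 4 or TD replicate 3 or 4 (adjusted p up to 0.0868). The count of 4 lower became 2 without WT replicate 1 or 4 or TD replicate 4.

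Cidec, which fuses lipid droplets, had the largest difference between TD and TA of these genes. It stood at 791, 644, 688 and 866 CPM in WT, at 994, 1330, 733 and 1173 in TA and at 409, 401, 353 and 364 in TD. TD lay below all other libraries. Cidec fell in TD versus WT by 0.97 ± 0.144 (adjusted p = 0.000233), rose in TA versus WT by 0.50 ± 0.143 (adjusted p = 0.032) and had a log2 fold change of -1.47 ± 0.146 in TD versus TA (adjusted p = 9.09e-06). The circadian repressor Nr1d1 was lower than WT in TD (-0.32 ± 0.111, adjusted p = 0.0415) and in TA (-0.36 ± 0.111, adjusted p = 0.0476), and its paralog Nr1d2 was not called. Cd24a, a surface glycoprotein of adipocyte progenitors, rose in TD versus WT by 1.04 ± 0.322 (adjusted p = 0.0227) at levels of at most 3.13 CPM. The Cidec rise in TA was lost without WT replicate 1, 2 or 3 or TA replicate 1, 2 or 4 (adjusted p up to 0.09), the Nr1d1 calls without WT replicate 1, 3 or 4, among others (up to 0.128), and the Cd24a call without WT replicate 2 or 4 or TD replicate 2 or 4 (up to 0.0746). With TD replicates 3 and 4 left out, 1 of these 6 genes, lower in TD, was called in TD versus WT. Calls over all genes fell likewise in that fit, to 837 higher and 679 lower from 2276 and 2142.

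**Figure D5:**
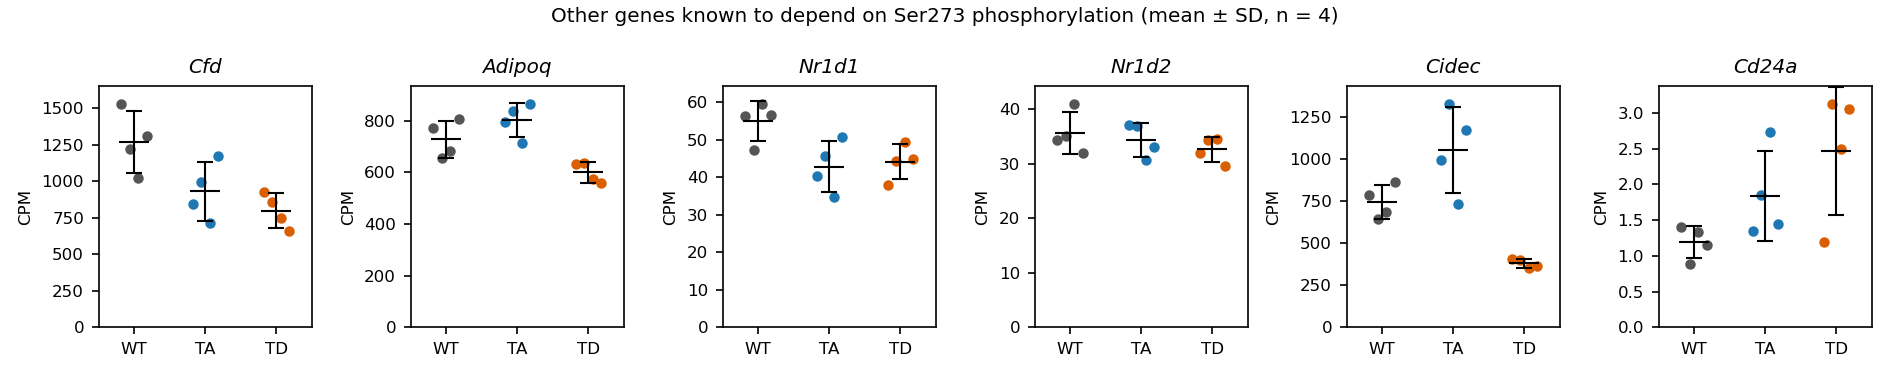
Expression in CPM (vertical axes, from 0) of Cfd, Adipoq, Nr1d1, Nr1d2, Cidec and Cd24a in each library (points) with the mean and SD of each genotype (n = 4, black). Cidec lies at 353 to 409 CPM in TD, below all WT (644 to 866) and TA (733 to 1330) libraries.

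Cfd, Adipoq and Cidec also count among the adipocyte markers. Of those 12 markers, 10 were lower in TD versus WT and 10 in TD versus TA, and 1 was higher and 1 lower in TA versus WT. The marker with the largest fall in TD versus TA was Cidec, and leptin (Lep) was the called rise, of 0.72 ± 0.122 (adjusted p = 0.000951). Of 12 genes driven by PPARγ agonists, 11 were lower in TD versus WT, 2 higher and 1 lower in TA versus WT, and 8 lower in TD versus TA, with medians of -0.47, 0.02 and -0.52. Fabp4, Plin1, Cd36, Slc2a4 and Lipe are on both lists. The largest fall in TD versus TA was that of the glycerol channel Aqp7, with -1.28 ± 0.170 (adjusted p = 0.000144). In the same comparison Car3, Peg10, Rarres2 and Txnip were higher. The part of adipocyte marker content in these results was not tested.

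Transcripts of CDK5 and of the MEK and ERK kinases measured here did not pass the test in any comparison. Cdk5 stood at 19.3 ± 2.39 CPM in WT (SD, n = 4), 19.5 ± 2.64 in TA and 19.0 ± 1.12 in TD, with a log2 fold change in TD versus TA of -0.04 (95% interval -0.28 to 0.20). Its activator Cdk5r1 was below 1.59 CPM in every library and was not called, and Cdk5r2 had too few counts to be tested. Mapk3, which encodes an ERK kinase, and Map2k1 and Map2k2, which encode MEK kinases, were not called in any comparison. Thrap3, which docks on PPARγ phosphorylated at Ser273, stood at 168 ± 9.92, 150 ± 11.6 and 152 ± 5.30 CPM and was not called. The phosphatase subunit Ppp2ca, the kinase Prkcb and the corepressor Ncor1 were not called either.

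Of the 13 tested genes of this list, 1 was higher and 2 lower in TD versus WT, against 15.1% and 14.2% of all tested genes. In TA versus WT 1 was higher, against 6.72%, and in TD versus TA 2 were lower, against 9.37%. DESeq2 called 3 lower in TD versus WT and 1 lower in TA versus WT. With single libraries left out, 1 to 3 were lower in TD versus WT and 0 to 1 in TA versus WT. So left out, 0 to 1 were higher and 2 to 4 lower in TD versus TA. Pparg itself stood at 354 ± 19.9 CPM in WT, 374 ± 46.1 in TA and 237 ± 24.2 in TD, and it fell in TD versus WT by 0.58 ± 0.0946 (adjusted p = 0.000429) and in TD versus TA by 0.66 ± 0.0947 (adjusted p = 0.000269). Its partner Rxra rose in TA versus WT by 0.58 ± 0.0689 (adjusted p = 4.31e-05) and was lower in TD than in TA, with -0.48 ± 0.0688 (adjusted p = 0.000252). Prkca, which encodes PKCα, the kinase that the study assigns to T166, rose in TD versus WT by 0.42 ± 0.0987 (adjusted p = 0.00497). The phosphatase gene Ppm1a fell in TD versus WT by 0.23 ± 0.0711 (adjusted p = 0.0238), a call lost without WT replicate 1 or 3 or TD replicate 3 or 4 (adjusted p up to 0.0897).

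Genes whose log2 CPM followed each called member most closely were sought among 10548 genes. The 12 libraries cover all 3 genotypes, so the genotype differences by which the members were called enter each correlation. Car3 was closest to Adm, which encodes adrenomedullin (Pearson's r = 0.948), and Enpp2, which encodes autotaxin (0.948). Peg10 was closest to Tcaf1 (0.971) and Fosl2 (0.955), and Rarres2 to Naaa (0.922) and Gstt2 (0.917). Cyp2f2 was closest to Rce1 (0.962) and to Insig2, a brake on SREBP processing (0.948). Txnip was closest to Hsd11b1 (0.872) and Tfeb (0.866), Aplp2 to Trim16 (0.964) and Tex2 (0.954), and Ddx17 to Stard8 (0.963) and Ints6l (0.961).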

How the data were processed

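Gene counts of 12 libraries, 4 each of WT, TA and TD adipocytes, were analysed, with genotypes taken from the sample labels. The authors sequenced on a NovaSeq instrument, aligned reads to GRCm38 with Hisat2 and deposited raw counts of reads per gene. The submitters' processing notes name bcl2fastq 2.17.1.14, cutadapt 1.9.1, HISAT2 2.0.1 and HTSeq 0.6.1, and the strand setting is not given in the sources used here. The table and the files of the 12 single libraries held equal counts. In each of 18 replicate pairs counts differed beyond sampling noise, with a chi-square per degree of freedom of 4.67 to 35.3.

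With R 4.3.3 and edgeR 4.0.16, genes were filtered (minimum count 10, minimum total 15), normalized by TMM (factors 0.957 to 1.04) and fitted in a single quasi-likelihood model over all libraries. Tests were two-sided and adjusted by Benjamini-Hochberg. The biological coefficient of variation was 12.9%. DESeq2 1.42.0 was an alternative, beside other scalings, filters, designs and left-out libraries. The steps were tested on simulated data. CPM per kb used exon lengths of GENCODE M21, on the same build, where 55480 of 55573 identifiers (99.8%) were found, and 2 was the prior count of log2 CPM.

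The members and all lists were chosen with earlier results of these data known. The text names every member, every tested gene of the lists of further Ser273 genes and of kinases and cofactors, the largest called rise and fall in TD versus TA of each other list, each called gene of partner lists of up to 10 genes, and the 2 genes most like each called member with a mean of at least 5 CPM. Some genes first placed on the list of kinases and cofactors are not reported here and enter none of its counts. The remaining marker lists gave Ttn (2.15 ± 0.550, adjusted p = 0.0143), Col1a1 (0.61 ± 0.163, adjusted p = 0.0183) and Kdr (1.04 ± 0.212, adjusted p = 0.00347) as the largest rises of muscle, fibroblast and endothelial markers in TD versus TA, those of Ttn and Col1a1 being lost without TD replicate 3 or 4 (up to 0.0705).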

Additional observations from a re-analysis of the deposited data

Results flagged for a closer look

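In groups of 4 libraries, a library was marked when its gap to the nearest other library took up an unusually large part of the range of its group (Dixon's criterion at the 95% level). Of 102 groups looked at, 6 were marked, and chance alone marks about 1 group in 20. Among the members, Car3 in TA replicate 2 (1744 CPM against 2282 to 2382 in the other TA libraries) had a gap of 0.844 of the range. Cyp2f2 in TD replicate 2 (298 CPM against 356 to 364) had a gap of 0.878. Rybp in WT replicate 3 (10.9 CPM against 7.00 to 7.62) had a gap of 0.843. Without that WT library the Rybp difference between TD and WT passed the test, whereas the called Car3 and Cyp2f2 differences passed it without each library in turn.

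Among the kinases and cofactors, the gap was 0.919 for Cdk5r1 in WT replicate 2 (0.348 CPM against 0.743 to 0.778). For Ncor1 in TD replicate 2 (197 CPM against 208 to 210.3) it was 0.838, and for Rxra in TA replicate 3 (272 CPM against 311 to 319) it was 0.834.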

How the results depend on the processing

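The called differences of Car3 in all 3 comparisons, of Cyp2f2 and Rarres2 in TA versus WT and TD versus TA, and of Peg10 in TD versus WT and TD versus TA passed the test with the same direction under each alternative run. Over the 14 called member differences, 229 of 280 alternatives kept the call, 51 lost it and 0 turned its direction. Over the 16 others, 3 of 320 passed the test. The number of members called in TD versus WT, 4, became 2 without a filter on low counts, 2 without TD replicates 3 and 4 (chosen after seeing the data) and 2 to 4 with single libraries left out. Without TD replicates 3 and 4, calls over all genes in TD versus WT also fell, to 837 higher and 679 lower from 2276 and 2142. In TA versus WT the number of members, 5, became 3 when WT and TA were fitted alone, 3 without TD replicates 3 and 4, and 3 to 4 with single libraries left out. There the calls over all genes, 1016 higher and 667 lower, became 783 and 448 when fitted alone and 936 and 552 without TD replicates 3 and 4. In TD versus TA the number of members was 4 to 5 with single libraries left out.

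Directions turned only for differences that did not pass the test, and the cause was not tested. Rarres2 in TD versus WT was 0.0286 with library totals alone, 0.0559 without TD replicates 3 and 4 and -0.11 to 0.0374 with single libraries left out. Rybp in TD versus TA was 0.0634 with library totals and -0.0912 to 0.11 with single libraries left out. So left out, Nr3c1 ran from -0.0561 to 0.0944 in TA versus WT and from -0.0534 to 0.0973 in TD versus TA, Selenbp1 from -0.19 to 0.0363 and Aplp2 from -0.0109 to 0.0713 in TD versus TA. Library totals alone moved the median of all genes to 0.08 in TD versus WT and 0.10 in TD versus TA, and the genes called higher and lower to 2840 and 1558 (from 2276 and 2142) and to 1802 and 982 (from 1108 and 1416). No called gene of the lists changed direction under library totals or RLE scaling. The labels number the libraries of each genotype alike, but same-numbered libraries did not deviate together (r of -0.237 to 0.196 over 12 pairs, 2 of 12 libraries closest to their own number). With the number as a replicate block, 3, 4 and 5 members were called in TD versus WT, TA versus WT and TD versus TA. Depth limits Peg10 and Rybp most, with 83 to 357 and 135 to 224 counts per library.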
